A study of Mus musculus with 6 samples.

Results

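Serine synthesis and folate one-carbon metabolism were described through the genes that encode their enzymes in mouse CD8+ T cells. The 9 genes were listed by name, as the enzymes of the serine pathway and of the folate steps that follow it, and 8 of them were read from the 11922 genes of the count table by their symbols. These were Phgdh, Psat1, Psph, Shmt1, Shmt2, Mthfd1, Mthfd1l and Mthfd2, and Aldh1l2 was not analysed here. All 8 passed the filter on low counts, which kept 11759 genes. CD8+ T cells from the spleens of 3 C57BL6/J mice were activated with anti-CD3/anti-CD28 beads for 72 hours and then expanded for 4 days, throughout in complete RPMI with 100 units per ml of recombinant human IL-2. Each mouse gave one culture with water (vehicle) and one with 0.25 mM AOA (aminooxyacetic acid, an inhibitor of enzymes that use vitamin B6), and RNA was collected on day 7. The 3 vehicle and 3 AOA replicates carry the number of their mouse. The cells were selected with beads against CD8α and stimulated through the T cell receptor and CD28 without antigen-presenting cells, and the sample labels give neither the age nor the sex of the donors.

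Serine is made from a glycolytic intermediate in a short cytosolic pathway. SHMT enzymes then pass a carbon from serine to tetrahydrofolate, leaving glycine, and the MTHFD enzymes change the oxidation state of that carbon or release it as formate, for purines, thymidylate and methylation. The folate steps exist in a mitochondrial and a cytosolic branch, and the mitochondrial branch usually supplies formate to the cytosol. In T cells these enzymes are known to be induced by activation and to support cell division. PSAT1, SHMT1 and SHMT2 hold the vitamin B6 cofactor pyridoxal phosphate (PLP) and so belong to the kind of enzyme that AOA inhibits, whereas the others do not use PLP.

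Total counts per library ranged from 12881962 to 21997078. A single library stood apart in each group. Counts differed between vehicle replicates 1 and 3 with a chi-square of 10.2 per gene, and between replicate 2 and these with 56.0 and 60.4, while the values were 10.7 between AOA replicates 2 and 3 and 72.4 and 65.8 between replicate 1 and these. All 8 enzyme genes had their highest vehicle level in replicate 2, so results are also given without it. The CD8 T cell markers Cd3d, Cd3e, Cd3g, Cd8a and Cd8b1 summed to 2910 to 3740 CPM (TMM-normalised counts scaled to library size) with vehicle and 3990 to 4640 CPM with AOA, and 2 of 5 were called higher with AOA (1 without AOA replicate 3), beside 26.2% of all tested genes. Markers of other lineages moved between the groups as well. The 4 CD4 T cell markers summed to 158 to 210 CPM with vehicle and 33.0 to 54.3 CPM with AOA, with 3 called lower beside 26.8% of all tested genes. The fourth, Foxp3, had a log2 fold change of 0.36 and was not called, but was called higher without vehicle replicate 2 (0.55, edgeR adjusted p = 0.0228). The NK cell markers summed to 20.1 to 114 CPM and 3.53 to 11.6 CPM, with the top value in vehicle replicate 2, where Ncr1 reached 2.35 CPM against 0 in vehicle replicates 1 and 3. The myeloid markers summed to 55.2 to 66.5 CPM and 4.18 to 7.77 CPM, mostly from Itgam with vehicle, while Lyz2 did not exceed 1.16 CPM in any library. B cell markers summed to 12.6 to 16.6 CPM and 22.6 to 30.7 CPM, nearly all from Cd79b, with Ms4a1 at 0.476 to 1.14 CPM, and erythroid markers were not analysed here. The part of these markers in the results below was not tested, and in bulk RNA fewer cells of a type cannot be told apart from less RNA per cell.

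All 8 enzyme genes were higher with AOA. Their log2 fold changes (AOA relative to vehicle) ran from 0.94 for Mthfd2 to 2.44 for Mthfd1, with a median of 1.42, beside a median of -0.02 over all tested genes. Each of the 8 was called by the quasi-likelihood test of edgeR across all genes at an adjusted p under 0.05, the largest adjusted p being 0.00318, and 0 were called lower. Over all tested genes 26.2% were called higher and 26.8% lower. At an unadjusted p under 0.05 the count of lower genes was also 0, as it was by DESeq2 and by limma. In all 8 genes every AOA library lay above every vehicle library, as in 31.0% of all tested genes. This separation implies that each gene was higher with AOA in all 3 mice. In 7 of the 8 the log2 fold change was also at least 1. Of all tested genes, 12.1% were called higher with a change of this size.

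**Figure D1:**
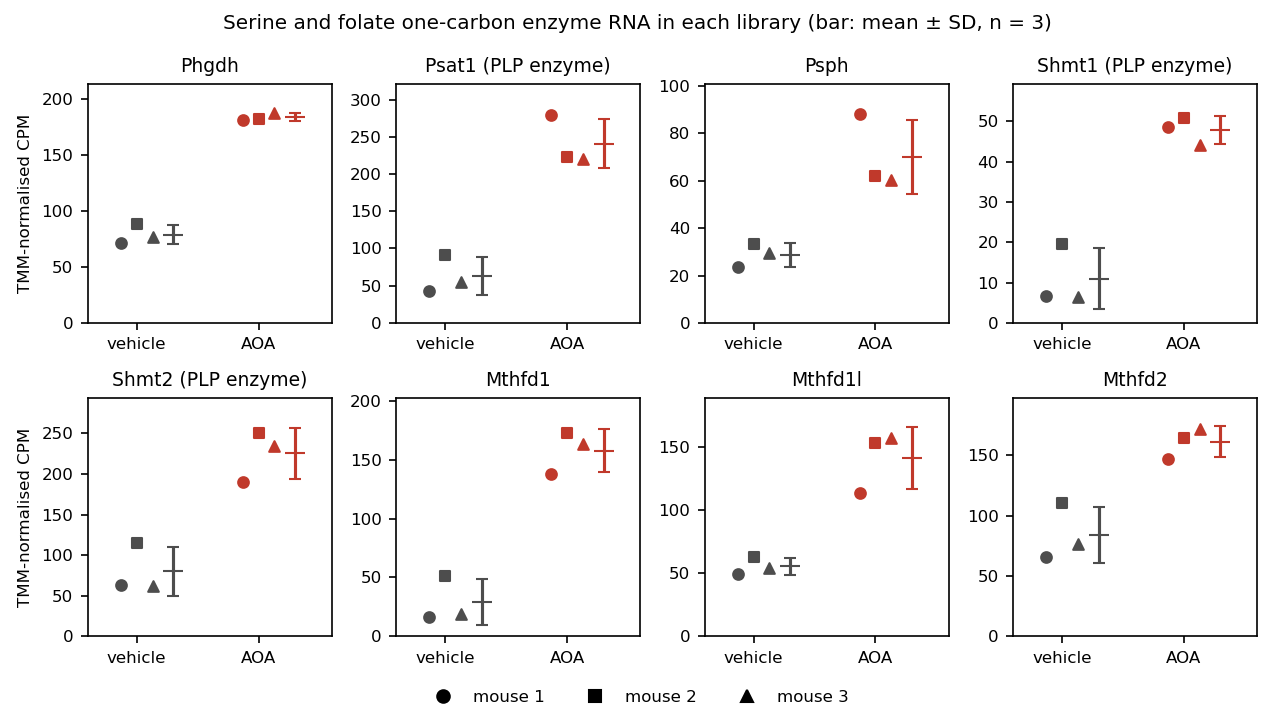
Level in CPM (y axis, from 0, scale differing by panel) of the 8 enzyme genes in the 3 vehicle (grey) and 3 AOA (red) libraries, with symbols for the donor mouse and bars for the mean and SD. Every AOA library sits above every vehicle library in all 8 panels, and mouse 2 (square) is the highest vehicle library in each.

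The first enzyme of serine synthesis is encoded by Phgdh (Entrez gene 236539, chromosome 3 of GRCm38 from 98313171 to 98339969), which oxidises 3-phosphoglycerate. Its level was 71.7, 88.2 and 76.8 CPM in vehicle replicates 1, 2 and 3 and 181, 182 and 188 CPM in AOA replicates 1, 2 and 3. The AOA libraries lay close together, and the lowest was 2.05 times the highest vehicle library. The log2 fold change was 1.22 (SE 0.13, edgeR adjusted p = 1.10e-04). Psat1 (Entrez gene 107272, chromosome 19 from 15905123 to 15925059), the gene of the PLP-dependent aminotransferase of the next step, was at 42.6, 91.8 and 54.8 CPM with vehicle and 279, 223 and 220 CPM with AOA. It rose most in mouse 1, by 2.71 on the log2 scale, and least in mouse 2, by 1.28. The fitted log2 fold change was 1.93 (SE 0.26, edgeR adjusted p = 3.83e-04), the largest of the 3 genes of serine synthesis. Psph (Entrez gene 100678, chromosome 5 from 129765558 to 129787443) encodes the phosphatase that releases serine. It was at 23.5, 33.4 and 29.5 CPM with vehicle and at 88.3, 61.9 and 60.4 CPM with AOA, so that AOA replicate 1 stood above the other AOA libraries. Its log2 fold change was 1.28 (SE 0.19, edgeR adjusted p = 6.57e-04).

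Both serine hydroxymethyltransferase genes rose, the cytosolic one more than the mitochondrial one. Shmt1 (Entrez gene 20425, chromosome 11 from 60788897 to 60811265), for the cytosolic PLP enzyme, had 6.75, 19.7 and 6.41 CPM with vehicle and 48.6, 51.0 and 44.0 CPM with AOA. The vehicle values were set apart by replicate 2, and the lowest AOA library was still 2.24 times this value. The log2 fold change was 2.13 (SE 0.38, edgeR adjusted p = 0.00160), and 2.90 without vehicle replicate 2. Shmt2 (Entrez gene 108037, chromosome 10 from 127517123 to 127522444), for the mitochondrial PLP enzyme, had 62.9, 115 and 62.2 CPM with vehicle and 190, 251 and 235 CPM with AOA. Its log2 fold change was 1.49 (SE 0.25, edgeR adjusted p = 0.00104), and 1.89 without vehicle replicate 2.

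Of the folate genes, the cytosolic Mthfd1 changed most and the mitochondrial Mthfd2 least. Mthfd1 (Entrez gene 108156, chromosome 12 from 76254406 to 76319820) encodes an enzyme with dehydrogenase, cyclohydrolase and formate-tetrahydrofolate ligase activities. It was at 16.4, 51.4 and 19.0 CPM with vehicle and 138, 172 and 163 CPM with AOA, a log2 fold change of 2.44 (SE 0.39, edgeR adjusted p = 8.18e-04). Without vehicle replicate 2, which again lay above replicates 1 and 3, it was 3.19. Mthfd1l (Entrez gene 270685, chromosome 10 from 3972892 to 4167081), whose product releases formate in mitochondria, was at 49.5, 63.0 and 54.1 CPM with vehicle and 113, 153 and 157 CPM with AOA. Its vehicle libraries differed little, AOA replicate 1 was the lowest AOA library, and the log2 fold change was 1.35 (SE 0.17, edgeR adjusted p = 2.28e-04). Mthfd2 (Entrez gene 17768, chromosome 6 from 83305704 to 83326011), for the mitochondrial dehydrogenase and cyclohydrolase, was at 65.6, 110 and 76.8 CPM with vehicle and 147, 164 and 172 CPM with AOA. Here the groups came closest, with the lowest AOA library 1.33 times the highest vehicle library, and the log2 fold change was 0.94 (SE 0.19, edgeR adjusted p = 0.00318).

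**Figure D2:**
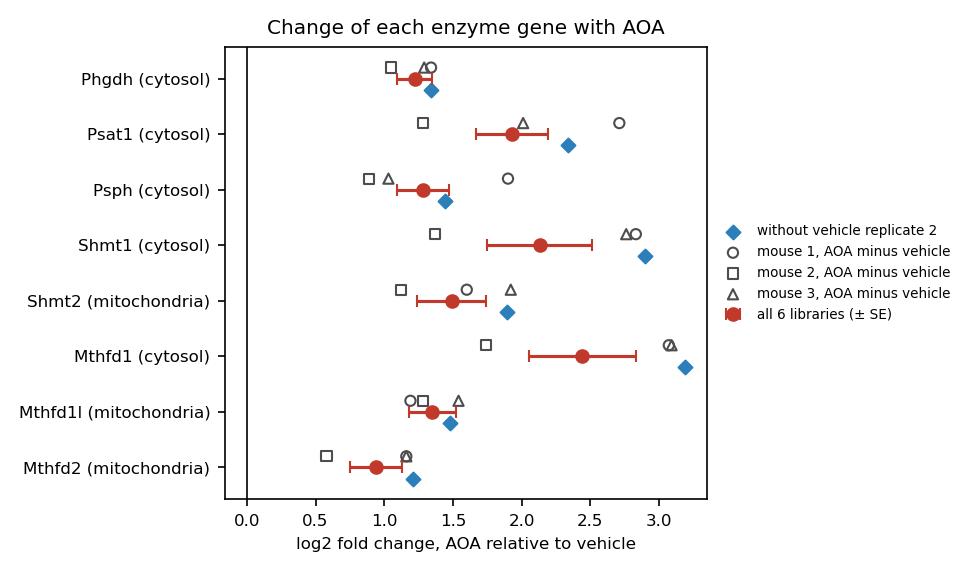
Log2 fold change of AOA relative to vehicle (x axis) for the 8 enzyme genes (y axis, with the compartment of the enzyme), from all 6 libraries with its standard error (red), without vehicle replicate 2 (blue), and as the difference within each mouse (open symbols). All values lie above 0, mouse 2 gives the smallest difference in 7 of the 8 genes, and the value without vehicle replicate 2 is the larger one for each gene.

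The genes that encode PLP enzymes and those that do not overlapped in their changes. Psat1, Shmt1 and Shmt2 had log2 fold changes of 1.93, 2.13 and 1.49, whereas Mthfd1, which uses no PLP, rose most and Phgdh, Psph, Mthfd1l and Mthfd2 ran from 0.94 to 1.35. Spread between vehicle replicates was wider for several of these genes than was usual. The coefficient of variation in the vehicle group was 69.1% for Shmt1, 67.5% for Mthfd1, 40.6% for Psat1 and 38.0% for Shmt2, with a median of 32.8% over the 8 genes and of 14.2% over all tested genes. In the AOA group the medians were 12.6% and 14.2%. Leaving out vehicle replicate 2 raised the median log2 fold change of the 8 genes from 1.42 to 1.68, and without AOA replicate 1 the median was 1.54. All 8 genes were still called higher in both cases.

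Levels were compared between genes as CPM per kilobase of the deposited gene length (RPKM). With vehicle, Phgdh had the highest level, at 42.2 ± 4.52 RPKM (SD, n = 3), followed by Mthfd2 at 40.7 ± 11.2, Shmt2 at 34.8 ± 13.2, Psat1 at 25.3 ± 10.3, Psph at 18.7 ± 3.25, Mthfd1l at 12.8 ± 1.58, Mthfd1 at 8.70 ± 5.87 and Shmt1 at 5.30 ± 3.66 RPKM (each SD, n = 3). The ranges over the vehicle libraries overlapped between neighbours in this order, except for Psph and Mthfd1l. Within each vehicle library Mthfd2 was nonetheless above Shmt2, Shmt2 above Psat1, Psat1 above Psph, and Mthfd1 above Shmt1. With AOA the upper 3 genes were nearly level, Phgdh at 98.2 ± 1.91, Shmt2 at 97.8 ± 13.6 and Psat1 at 96.6 ± 13.3 RPKM (each SD, n = 3). Mthfd2 followed at 77.8 ± 6.20 RPKM, then Mthfd1 at 47.4 ± 5.39, Psph at 45.7 ± 10.2, Mthfd1l at 32.6 ± 5.60 and Shmt1 at 23.2 ± 1.70 RPKM (each SD, n = 3), of which Mthfd1 and Psph overlapped. The vehicle means of Shmt1 and Mthfd1 were raised by replicate 2, since Shmt1 was at 3.27 and 3.10 RPKM and Mthfd1 at 4.92 and 5.72 RPKM in replicates 1 and 3. Among all tested genes, Shmt1 moved from percentile 33.0 to 70.0 of the per-length levels and Mthfd1 from 44.7 to 85.0. Phgdh, already at percentile 84.7 with vehicle, moved to 93.4.

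The balance between the mitochondrial and cytosolic enzyme of a step was followed as the ratio of reads per length within each library, in which library size cancels. Shmt2 exceeded Shmt1 by 8.35, 5.25 and 8.69 times in vehicle replicates 1, 2 and 3 and by 3.51, 4.41 and 4.78 times in AOA replicates 1, 2 and 3. The AOA ratios all lay below the vehicle ratios, with a difference in the mean log2 ratio of -0.79. Mthfd1l stood at 2.32, 0.940 and 2.18 times Mthfd1 with vehicle and at 0.631, 0.682 and 0.740 times with AOA, a difference of -1.30 in the mean log2 ratio. The cytosolic gene was thus the higher one per length in every AOA library, but in only 1 of 3 vehicle libraries, replicate 2. In contrast, Mthfd2 against Mthfd2l, its mitochondrial partner gene, went from 64.0, 72.5 and 90.3 times with vehicle to 119, 120 and 148 times with AOA, a difference of 0.78, with Mthfd2l at only 0.923 to 1.65 CPM in all libraries. For each of the 3 pairs the groups did not overlap, but how often this holds for other gene pairs was not examined. Among single tested genes, every AOA library lay above every vehicle library in 31.0%. With 3 libraries per group the exact two-sided permutation test cannot give a p below 0.1, which is the value of each pair before and after adjustment over the 3 pairs, so none passed the threshold. Within mice 1, 2 and 3 the log2 ratio of Shmt2 to Shmt1 differed by -1.25, -0.25 and -0.86, and that of Mthfd1l to Mthfd1 by -1.88, -0.46 and -1.56. Without vehicle replicate 2 the group differences were -1.02 and -1.72.

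**Figure D3:**
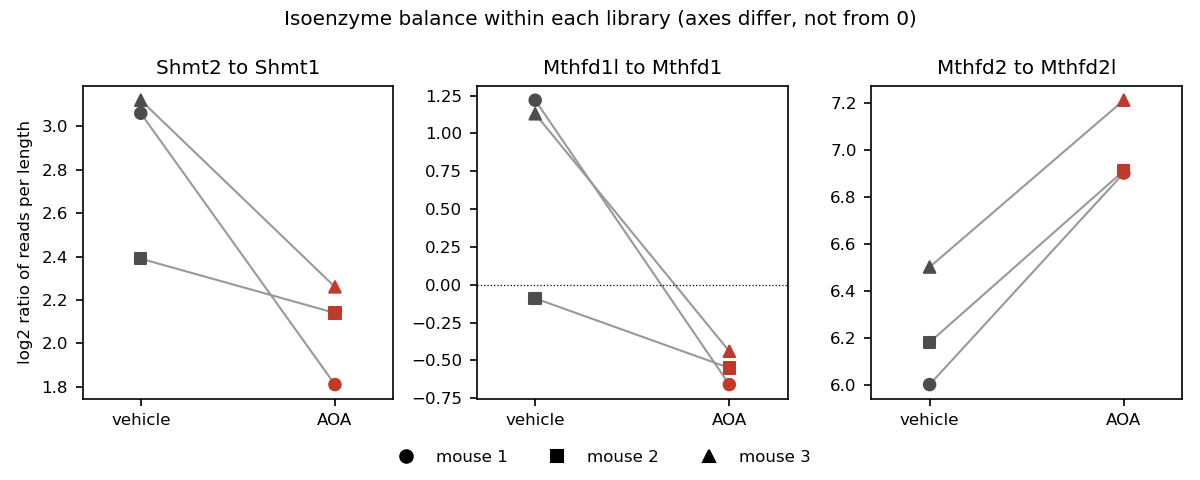
Log2 ratio of reads per length (y axis, scale differing by panel and not starting at 0) between the 2 enzymes of each of 3 pairs in vehicle (grey) and AOA (red) libraries, with lines joining the cultures of a mouse and a dotted line at equal levels in the middle panel. The ratios of Shmt2 to Shmt1 and of Mthfd1l to Mthfd1 are lower with AOA in every mouse, and that of Mthfd2 to Mthfd2l is higher.

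As all 8 genes were higher with AOA, the DNA before their start sites was examined. RefSeq promoter windows of GRCm38.p6 were used, which reach from 250 bases before to 50 bases after a start. All 8 genes matched, with 9 windows, as Psat1 has 2. The windows of the 3 PLP enzymes and of the Mthfd1 and Mthfd1l pair are shown 5' to 3' on the strand of the gene, with the NF-Y box CCAAT, or ATTGG where it lies on the opposite strand, in capitals. They lie at chr19:15925010-15925309 (minus strand) for Psat1, chr11:60811216-60811515 (minus) for Shmt1, chr10:127522395-127522694 (minus) for Shmt2, chr12:76254982-76255281 (plus) for Mthfd1 and chr10:3972825-3973124 (plus) for Mthfd1l.
Psat1: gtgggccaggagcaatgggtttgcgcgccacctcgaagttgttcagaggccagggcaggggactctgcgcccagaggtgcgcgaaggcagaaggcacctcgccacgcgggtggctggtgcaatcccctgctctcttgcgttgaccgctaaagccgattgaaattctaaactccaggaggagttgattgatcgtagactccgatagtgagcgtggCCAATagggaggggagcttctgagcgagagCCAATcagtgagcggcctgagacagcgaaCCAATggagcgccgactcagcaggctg
Shmt1: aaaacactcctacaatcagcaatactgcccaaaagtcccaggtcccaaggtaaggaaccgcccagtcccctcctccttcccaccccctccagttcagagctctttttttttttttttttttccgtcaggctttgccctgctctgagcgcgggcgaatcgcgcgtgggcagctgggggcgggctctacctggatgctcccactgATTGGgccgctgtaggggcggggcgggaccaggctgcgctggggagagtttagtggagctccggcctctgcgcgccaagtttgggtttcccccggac
Shmt2: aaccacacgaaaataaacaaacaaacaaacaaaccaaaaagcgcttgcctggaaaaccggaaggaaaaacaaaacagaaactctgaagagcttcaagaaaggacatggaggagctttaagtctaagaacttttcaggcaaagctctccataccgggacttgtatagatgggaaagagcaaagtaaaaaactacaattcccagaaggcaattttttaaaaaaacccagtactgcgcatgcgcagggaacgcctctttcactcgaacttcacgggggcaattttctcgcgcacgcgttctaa
Mthfd1: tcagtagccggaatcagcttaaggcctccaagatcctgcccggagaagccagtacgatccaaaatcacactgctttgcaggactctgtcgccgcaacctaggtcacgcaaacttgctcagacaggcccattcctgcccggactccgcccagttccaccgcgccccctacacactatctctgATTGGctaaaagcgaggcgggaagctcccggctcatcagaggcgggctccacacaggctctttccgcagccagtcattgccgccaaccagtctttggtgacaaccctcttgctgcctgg
Mthfd1l: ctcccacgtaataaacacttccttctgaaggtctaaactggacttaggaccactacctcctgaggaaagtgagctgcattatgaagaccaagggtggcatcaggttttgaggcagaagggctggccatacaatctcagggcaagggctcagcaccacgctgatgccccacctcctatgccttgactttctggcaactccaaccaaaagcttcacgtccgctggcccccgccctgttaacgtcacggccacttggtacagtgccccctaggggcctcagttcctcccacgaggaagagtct

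CCAAT was found in 6 of the 9 windows, on either strand, in 37.4% of 32851 promoter windows of the genome and in 37.7% of the 11991 windows of tested genes. The 6 windows belonged to Phgdh, Psat1, Psph, Shmt1, Mthfd1 and Mthfd2. Psat1 and Mthfd2 each held 3 matches in a single window, and the matches of Psat1 began 36 and 6 bases before and 23 bases after the start. The window shown for Shmt1 held a match 47 bases before its start and that of Mthfd1 held one 69 bases before, whereas the windows of Shmt2 and Mthfd1l held none. An E2F-like string, TTTNNCGC, was found in 2 of 9 windows, those of Psph and Shmt2, in 5.17% of all windows and in 8.46% of those of tested genes. The E-box CACGTG and TGATGNAA, the core of the amino acid response element that ATF4 binds, were in 0 of the 9 windows on either strand. They were in 7.15% and 3.97% of all windows and in 10% and 2.33% of those of tested genes. Such a match describes letters in a window and not binding.

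The genes around these enzymes changed less uniformly. Of 37 genes in 5 lists of serine and folate metabolism, 29 were tested, of which 14 were called higher and 5 lower. Their median log2 fold change was 0.38, and 0.61 without vehicle replicate 2. This is 14 of 29 beside 26.2% of all tested genes higher, and 5 of 29 beside 26.8% lower, and the lower count was 3 without vehicle replicate 1 or 3 or AOA replicate 3. Of 6 genes of folate-using synthesis, which cover nucleotides, methionine and the formylation of initiator tRNA, 4 were higher and 0 lower, a count of 0 that also held at an unadjusted p under 0.05 and by DESeq2 and limma, but was 1 without AOA replicate 1. Tyms, which makes thymidylate, was at 7.94, 16.0 and 10.6 CPM with vehicle and 137, 97.1 and 98.9 CPM with AOA, a log2 fold change of 3.26 (SE 0.26, edgeR adjusted p = 2.73e-05). Atic and Gart, the enzymes of purine synthesis that take a formyl group from folate, rose by 1.84 and 1.67 on that scale.

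In the list of folate interconversion, Aldh1l1, the cytosolic enzyme that oxidises formyl-tetrahydrofolate, was at -1.19 (adjusted p = 0.0334), but this call was lost without vehicle replicate 1 or 3 and without AOA replicate 1 or 3. For entry and retention of folate, 3 of 4 tested genes were higher and 0 lower by edgeR, at an unadjusted p under 0.05 too and by DESeq2 and limma, beside 26.2% and 26.8% of all tested genes. These were Slc19a1, the reduced folate carrier (1.49), Slc25a32, the mitochondrial folate carrier (1.15), and Fpgs, which adds the glutamate tail that holds folate in the cell (0.75).

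Genes for glycine cleavage and serine transport moved in both directions. The glycine cleavage system also needs PLP, in its Gldc subunit. Amt, a gene of this system, was lower at -1.84 on the log2 scale, from 2.16 to 4.76 CPM with vehicle to a scarce 0.476 to 1.38 CPM with AOA. Gldc, Gcsh and Dld were higher by 2.17, 1.46 and 0.45, and Gcsh by 2.09 without vehicle replicate 2. Gldc was scarce as well, at 0.163 to 0.714 CPM with vehicle and 1.06 to 3.33 CPM with AOA. Its call was lost without AOA replicate 2, as was that of Gcsh without AOA replicate 1. Among 9 tested genes of serine transport and breakdown, 3 were higher and 2 lower, near the 26.2% and 26.8% of all tested genes. Sfxn1, the mitochondrial serine carrier, rose from 83.9, 99.5 and 87.7 CPM to 160, 163 and 143 CPM, a log2 fold change of 0.78 (SE 0.13, edgeR adjusted p = 0.00108). The related Sfxn2 and the serine racemase gene Srr rose by 1.04 and 0.60, and Sfxn3 fell by 0.54, a call lost without vehicle replicate 3. Slc1a5, a plasma membrane carrier of serine and glutamine, was at -0.39 (adjusted p = 0.0412), and this call was lost when mouse was a replicate block (edgeR adjusted p = 0.0650), and also without any 1 of the 6 libraries.

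The transcription factor ATF4 is known to drive Phgdh, Psat1, Psph, Shmt2, Mthfd1l and Mthfd2. MYC is known to act on several of the same genes. RNA alone was measured here, not the protein of either factor, and their part in the rise of the enzymes was not tested. Atf4 RNA went the other way from these enzymes. It was at 306, 353 and 276 CPM with vehicle and 161, 159 and 138 CPM with AOA, a log2 fold change of -1.03 (SE 0.15, edgeR adjusted p = 4.81e-04). Eif2ak4, which encodes the kinase that senses uncharged tRNA upstream of ATF4, fell from 31.7, 24.1 and 27.7 CPM to 13.8, 17.6 and 15.3 CPM, a log2 fold change of -0.84 (SE 0.17, edgeR adjusted p = 0.00280). Myc was at 194, 192 and 151 CPM with vehicle and 230, 278 and 228 CPM with AOA. Its log2 fold change of 0.45 was called (adjusted p = 0.0331 by edgeR), but not without vehicle replicate 1 or 3, nor without AOA replicate 2 or 3. Nfe2l2, for the factor NRF2, had a log2 fold change of 0.33 and was not called (adjusted p = 0.128).

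Of 14 tested ATF4 target genes outside the serine and one-carbon enzymes, 0 were called higher and 5 lower by edgeR, beside 26.2% and 26.8% of all tested genes. The median of their log2 fold changes was -0.43. It was 0.10 for the 9 genes with at least 10 CPM in 3 libraries, and -0.83 with edgeR and -0.85 with DESeq2 for the 16 genes present without a filter on low counts. At an unadjusted p under 0.05 the count of higher genes was 0 by edgeR and DESeq2 and 1 by limma, and with adjustment it was 0 by all of these. Atf3, Ddit3 and Pycr1 fell most, to -3.08, -2.31 and -1.37 on the log2 scale, and the call of Pycr1 was lost without vehicle replicate 3 and without AOA replicate 1 or 2. Ddit3, which encodes the stress factor CHOP, was at 34.1, 41.3 and 35.5 CPM with vehicle and 7.63, 6.82 and 7.82 CPM with AOA. In some genes of this list vehicle replicate 2 was the highest vehicle library by far. Asns, for asparagine synthetase, was at 10.9, 44.9 and 12.2 CPM with vehicle and 19.7, 26.3 and 29.0 CPM with AOA. Without vehicle replicate 2, 3 genes of the list (Asns, Sesn2 and Slc7a5) were called higher with 5 lower and a median of -0.04, and when mouse was a replicate block 2 (Sesn2 and Slc7a5) were called higher.

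**Figure D4:**
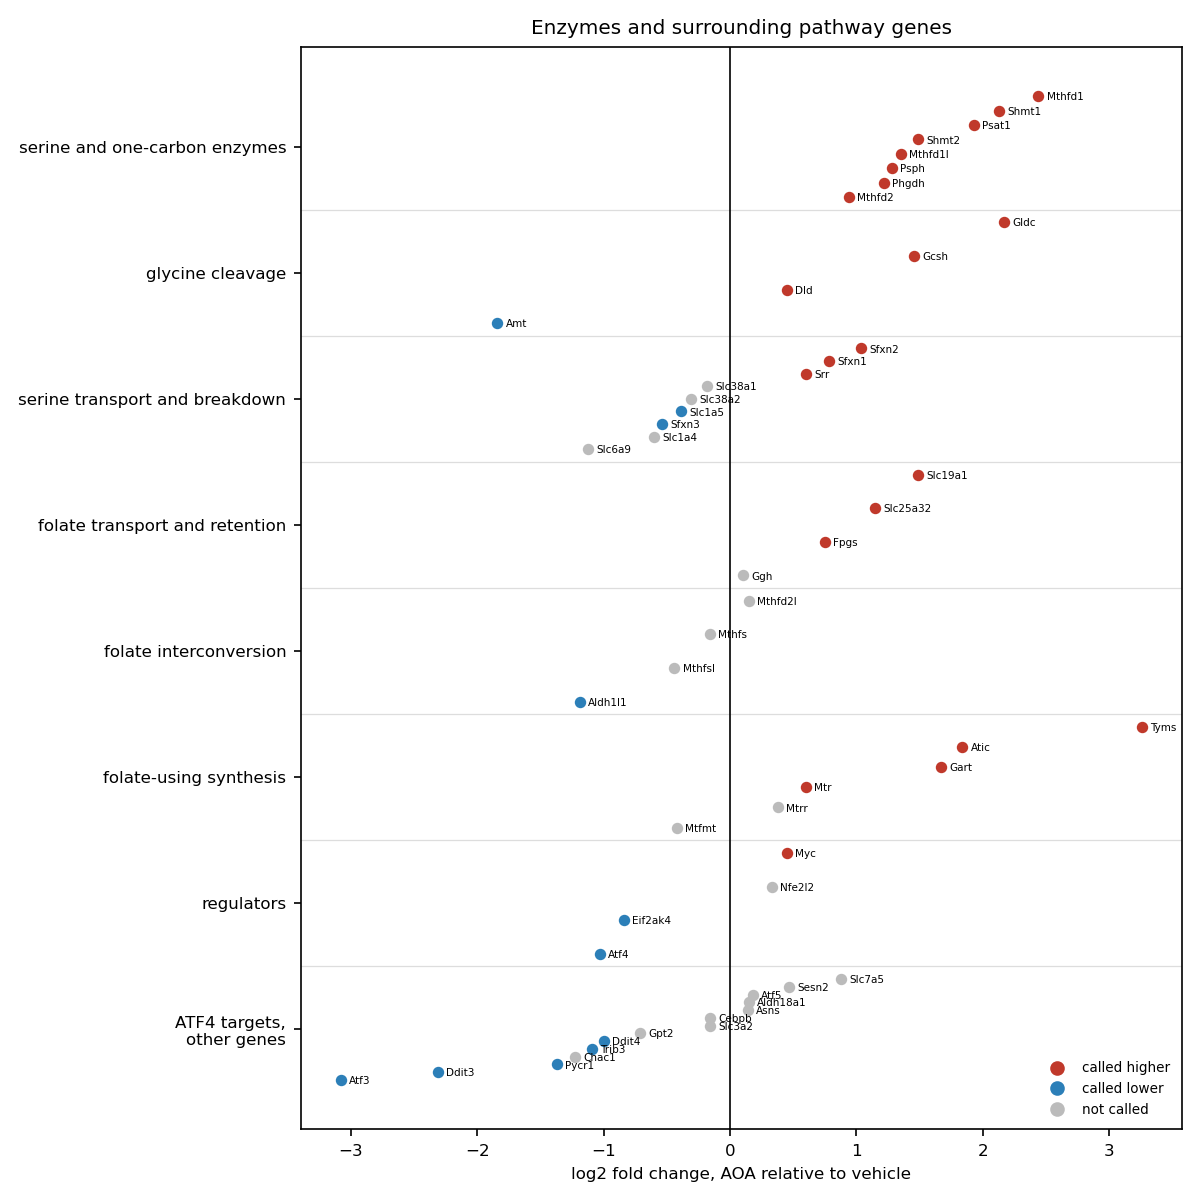
Log2 fold change of AOA relative to vehicle (x axis) for the genes of the enzyme group and of 7 surrounding lists, without those not reported here (y axis, genes sorted within each list), coloured by whether edgeR called it higher, lower or neither. All 8 enzymes lie to the right of 0 and Tyms is the highest point at 3.26, while the 14 other ATF4 targets reach from -3.08 to 0.88 with no point called higher.

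The genes whose values over the 6 libraries lay closest to each PLP enzyme were found, as a description. Closeness was the Euclidean distance between mean-centred log2 CPM values. This distance includes the difference between the groups, so genes with a like fold change lie close. For Psat1 the nearest genes were Nop58, Sdf2l1 and Mrto4, at distances of 0.162, 0.234 and 0.243. Their log2 fold changes were 1.91, 1.92 and 1.87, beside 1.93 for Psat1. The nearest enzyme of the group, Shmt1, ranked 191 at 0.775. For Shmt1 they were Apex1, Tfdp1 and Rexo2, at 0.277, 0.309 and 0.343, and Mthfd1 ranked 8 at 0.517. The log2 fold changes of Apex1, Tfdp1 and Rexo2 were 2.09, 2.19 and 2.26, beside 2.13 for Shmt1. For Shmt2 the 3 nearest included Bysl and Hspa9, at 0.162 and 0.177. The log2 fold changes of Bysl and Hspa9 were 1.40 and 1.38, beside 1.49 for Shmt2. The nearest enzyme of the group, Mthfd1l, ranked 119 at 0.575.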

How the data were processed

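RNA of 6 libraries (3 vehicle, 3 AOA) was measured. The authors made stranded mRNA libraries, read both ends, aligned with STAR under its default options and kept uniquely mapped reads. The deposited values are raw counts per gene beside a gene length in bases. Per the labels, featureCounts, DESeq2 and mm10 (GRCm38) are also named, while the annotation and any gene filter are not stated. Counting error limits low genes, and replicates differed by more than sampling noise (chi-square per gene 10.2 to 72.4).

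Counts were tested with edgeR 4.0.16 in R 4.3.3 (filterByExpr with a minimum count of 10, TMM, robust quasi-likelihood test, Benjamini-Hochberg over 11759 genes, threshold 0.05). The standard error (SE) is the log2 fold change over the root of F. Alternatives were DESeq2 1.42.0, limma 3.58.1 (voom), other size factors and filters, the mouse as a replicate block, and each library left out. Scripts were tested on simulated data. The labels tie both cultures to a mouse, and within mice 1, 2 and 3 the libraries' deviations correlated over genes with r of 0.0868, 0.189 and 0.194.

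The enzymes and all lists were chosen with earlier results of these data known. Named were the enzymes, 4 regulators, up to 3 called genes per direction of each list, by size of change, and the 3 nearest genes of each PLP enzyme. Asns, Sesn2, Slc7a5, Mthfd2l and cell markers were named after their values were seen, and counting lists under the alternatives was added then too. A few genes are not reported here, although the counts and medians of lists include them.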

Additional observations from a re-analysis of the deposited data

How the results depend on the processing

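Each of the 8 enzyme genes kept its direction under every alternative run, and its call except for Mthfd2 where a change of at least 1 on the log2 scale was also asked for, with fold changes on the log2 scale between 0.81 (Mthfd2) and 3.19 (Mthfd1, without vehicle replicate 2) and a largest adjusted p of 0.0143, for Shmt1. The mouse as a replicate block changed no call of these genes, with a log2 fold change of 2.63 for Mthfd1 and 0.97 for Mthfd2. Over all genes, asking also for a change of at least 1 on the log2 scale left 1418 higher and 1663 lower, by construction, and 7 of the 8 enzyme genes. With each library left out, 2519 to 3499 genes were higher and 2433 to 3297 lower. The isoenzyme ratios kept their sign throughout, and within-mouse differences averaged -0.79 for Shmt2 to Shmt1, -1.30 for Mthfd1l to Mthfd1 and 0.78 for Mthfd2 to Mthfd2l, where 3 mice cannot give an exact p below 0.25. Together the 5 serine and folate lists had 13 to 15 genes higher and 3 to 5 lower among 29 with each library left out or with another test. The strict filter on CPM left 20 of these genes, with 12 higher and 3 lower. Counts of Gldc, Amt, Mthfd2l and Pycr1 are low and limit what can be said of them.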
